A study of Mus musculus with 8 samples.

Results

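The tensile network of cartilage is built on a thin fibril in which several collagens are assembled together. Type II collagen makes up the bulk of it, type XI collagen starts the fibril and limits its width, and type IX collagen sits on its surface and ties it to neighbouring fibrils and to other matrix proteins. Type XXVII collagen is a further fibrillar collagen of cartilage. IL-1β is a proinflammatory cytokine that activates NF-κB signalling and is widely used on cultured chondrocytes to bring about a state with features of osteoarthritis.

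The 7 genes of these chains are *Col2a1* (type II), *Col11a1* and *Col11a2* (type XI), *Col9a1*, *Col9a2* and *Col9a3* (type IX) and *Col27a1* (type XXVII). They were taken by gene symbol from a table of 54658 symbols, in which 44 are collagen genes, and all 7 passed the filter on low counts that left 14404 genes for testing. The table comes from RNA-Seq of total RNA from primary articular chondrocytes, which had been released by digestion from the femoral head cartilage of wild-type mice 3 weeks old and grown in wells with serum. Of the 8 samples, 4 had received IL-1β at 1 ng/mL and 4 vehicle, for 24 h. Neither the strain nor whether the samples of a group were separate cultures is given in the labels, so p-values measure the spread between these samples, which may be technical.

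Total counts were 10992355 to 17456063 per sample, and 3 counts, the smallest abundance taken as shown, are 0.172 to 0.273 CPM (counts scaled to 1000000 per sample). CPM below are scaled by edgeR's TMM factors (0.984 to 1.01). The levels of all 7 genes lay far above 3 counts in all 8 samples. A single gene of uncertain annotation, *Gm26917*, took 13.2% to 14.6% of the counts of every sample. The labelled cell type was checked against its markers: all 10 chondrocyte markers listed were measured. *Col2a1* is one of them and holds most of their summed counts, so it was left out of the sum, and the other 9 had a summed level of 3263 to 3386 CPM in the vehicle samples and 894 to 990 CPM in the IL-1β samples. All 9 were DEGs with lower levels, as defined below. Endothelial markers summed to at most 1.25 CPM, muscle markers to at most 1.72 CPM and erythroid markers to at most 0.217 CPM in any sample. Of 6 leukocyte markers, *Cd3e* was at 0 in all samples, only *Cd68* passed the filter, and the sum was 9.82 to 10.7 CPM in vehicle and 14.4 to 17.7 CPM after IL-1β. The 4 fibroblast markers summed to 33.3 to 35.1 CPM in vehicle and to 68.6 to 71.5 CPM after IL-1β, mostly from *Pdpn* and *Pdgfra*, while *Thy1* and *Dpt* did not pass the filter. Of the 2 tested, *Pdpn* was a DEG with a higher level (log2 fold change 2.26, SE 0.0843) and *Pdgfra* was not a DEG (0.58, SE 0.0481). The 6 osteoblast markers summed to 136 to 147 CPM in vehicle and 54.2 to 64.0 CPM after IL-1β, and 4 of the 5 tested were DEGs with lower levels. The part of these shifts in the results was not tested, and in bulk RNA fewer cells of a type cannot be told apart from less RNA per cell.

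A collagen chain winds into a triple helix only where glycine recurs at the start of each triplet of residues, whose codons all begin with GG. The coding sequences of the members show this directly and also show how the collagen types differ, so the first 9 codons of the longest uninterrupted stretch of each are printed here, from GENCODE vM21 (GRCm38), 5′ to 3′, with the glycine codons in capitals.
Col2a1, from codon 201: GGGcccatgGGCcccatgGGAccccgt
Col11a1, from codon 527: GGCcctcctGGCccaatgGGTcttact
Col11a2, from codon 487: GGGccccctGGCcccatgGGTtacacg
Col9a1, from codon 418: GGTcgctctGGAtatccaGGCctacca
Col9a2, from codon 180: GGTgtgaagGGTcctcagGGTttgcaa
Col9a3, from codon 177: GGCcctccgGGAcccccaGGAatgccg
Col27a1, from codon 673: GGAgcaaagGGCaacatgGGCttgcct
The stretch ran for 339 triplets in *Col2a1* and for 338 in both *Col11a1* and *Col11a2*, the long unbroken helix of the major fibrillar chains. In *Col27a1* it was 217 triplets, but its 3 stretches of 5 or more triplets held 329 in all. Counted in that way, *Col2a1* held 364 triplets and *Col11a1* and *Col11a2* 355 each. In *Col9a1*, *Col9a2* and *Col9a3* it was 113 triplets in each, and each of these coding sequences held 6 stretches of 5 or more triplets with 197 triplets in all, the interrupted helix of a fibril-associated collagen.

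After IL-1β, the mRNA of all 7 chains was lower. In each of the 7 genes every IL-1β sample lay below every vehicle sample, which held for 18.2% of all genes tested. By edgeR's quasi-likelihood test, 6 of the 7 were differentially expressed genes (DEGs, log2 fold change above 1 or below -1 with a Benjamini-Hochberg adjusted p-value under 0.05) with lower levels, against 2.35% of all genes tested. The median log2 fold change was -1.88 over the 7 and 0.00 over the 14404 genes. *Col27a1* had the largest change and *Col9a2*, the 1 gene that was not a DEG, the smallest. Together the 7 genes took 1.43 ± 0.0220% of all counts in the vehicle samples and 0.379 ± 0.0120% in the IL-1β samples (SD, n = 4 each), a fall of 3.77-fold (p = 0.0286 in a two-sided exact permutation test, which can give no smaller p with 4 against 4 samples).

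**Figure D1:**
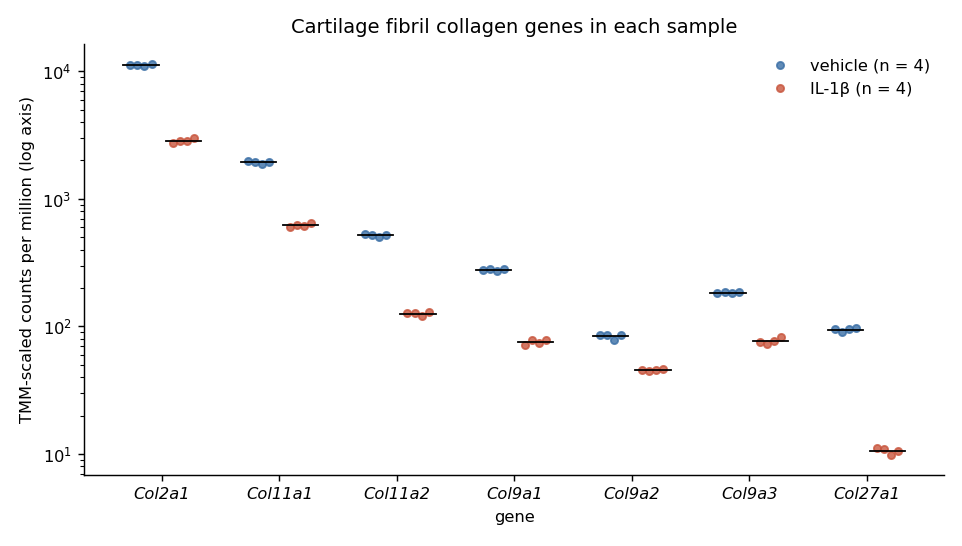
TMM-scaled CPM (log axis) of the 7 genes in each of the 4 vehicle samples (blue) and 4 IL-1β samples (red), with a line at the mean of each group. The groups are separate in every gene, and the gap is widest in *Col27a1* (94.5 against 10.6 CPM) and narrowest in *Col9a2* (83.9 against 45.3 CPM).

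*Col2a1* encodes the α1 chain, 3 copies of which form a type II collagen molecule (chromosome 15, 97975602 to 98004695, GRCm38, minus strand). Its level was 11113, 11252, 11054 and 11494 CPM in vehicle samples 1 to 4 and 2725, 2820, 2859 and 3007 CPM in IL-1β samples 1 to 4. The vehicle samples lay in a narrow band, far above the highest IL-1β sample. The log2 fold change was -1.98 (SE 0.0255, adjusted p = 4.07e-30 by edgeR), a fall to 25.4% of the vehicle level. Counts per gene do not separate the splice forms of *Col2a1* that mark immature and mature chondrocytes.

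*Col11a1* encodes the α1 chain of type XI collagen (chromosome 3, 114030540 to 114220718). It had 1995, 1932, 1886 and 1951 CPM in vehicle and 607, 627, 617 and 650 CPM after IL-1β, and no sample of either group came near the other. The log2 fold change was -1.63 (SE 0.0295, edgeR adjusted p = 1.29e-26). *Col11a2*, which encodes the α2 chain (chromosome 17, 34039437 to 34066685), had 526, 521, 499 and 521 CPM in vehicle and 127, 127, 121 and 128 CPM after IL-1β. Its log2 fold change was -2.04 (SE 0.0336, edgeR adjusted p = 1.45e-27), so that 24.3% of the vehicle level was left, against 32.2% for *Col11a1*. The remaining chain of the type XI molecule is a product of *Col2a1*, described above.

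Type IX collagen is a trimer of 1 chain from each of *Col9a1*, *Col9a2* and *Col9a3*, and these genes did not fall by the same amount. *Col9a1* (chromosome 1, 24177610 to 24252684) had 276, 280, 270 and 283 CPM in vehicle and 71.5, 78.7, 73.7 and 78.1 CPM after IL-1β. Its log2 fold change was -1.88 (SE 0.0342, edgeR adjusted p = 1.52e-26). *Col9a3* (chromosome 2, 180597790 to 180622189) had 183, 185, 182 and 184 CPM in vehicle and 74.8, 72.9, 76.6 and 82.0 CPM after IL-1β, a log2 fold change of -1.26 (SE 0.0344, edgeR adjusted p = 2.67e-22). In *Col9a3*, 234 of the exon bases (6.07%) are also exon bases of *Tcfl5* on the other strand, and whether the counting used strand is not given in the sources used here. *Tcfl5* itself had 8.43 ± 1.11 CPM in vehicle and 9.64 ± 0.521 CPM after IL-1β (SD, n = 4). *Col9a2* (chromosome 4, 121039385 to 121055322) had 85.7, 85.7, 78.3 and 85.8 CPM in vehicle and 45.4, 44.4, 45.2 and 46.2 CPM after IL-1β. Its groups did not overlap, but the log2 fold change of -0.89 (SE 0.0418, edgeR adjusted p = 1.14e-16) did not reach -1.

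*Col27a1* (chromosome 4, 63214004 to 63334991) was the member that changed most. It had 96.1, 90.2, 94.6 and 97.0 CPM in vehicle and 11.2, 10.998, 9.77 and 10.5 CPM after IL-1β, which rest on 1322 to 1661 and on 124 to 164 counts. The log2 fold change was -3.16 (SE 0.0527, edgeR adjusted p = 1.82e-27), a fall of 8.93-fold, and 11 of the 14404 genes had a lower value. An intron of *Col27a1* holds *Mir455*, the gene of a miRNA found in cartilage, whose mature forms are given by RefSeq (GRCm38.p6, plus strand, chr4:63256867-63256888 and chr4:63256904-63256924) and printed here with the seed, bases 2 to 8, in capitals.
miR-455-5p: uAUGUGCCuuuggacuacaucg
miR-455-3p: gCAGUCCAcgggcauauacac
Reads assigned to *Mir455* numbered 5, 3, 1 and 6 in the vehicle samples and 0 in each IL-1β sample. These are counts of reads on the hairpin gene in libraries of total RNA, at or near the limit of 3 counts, and give no level of the mature miRNAs and no fold.

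**Figure D2:**
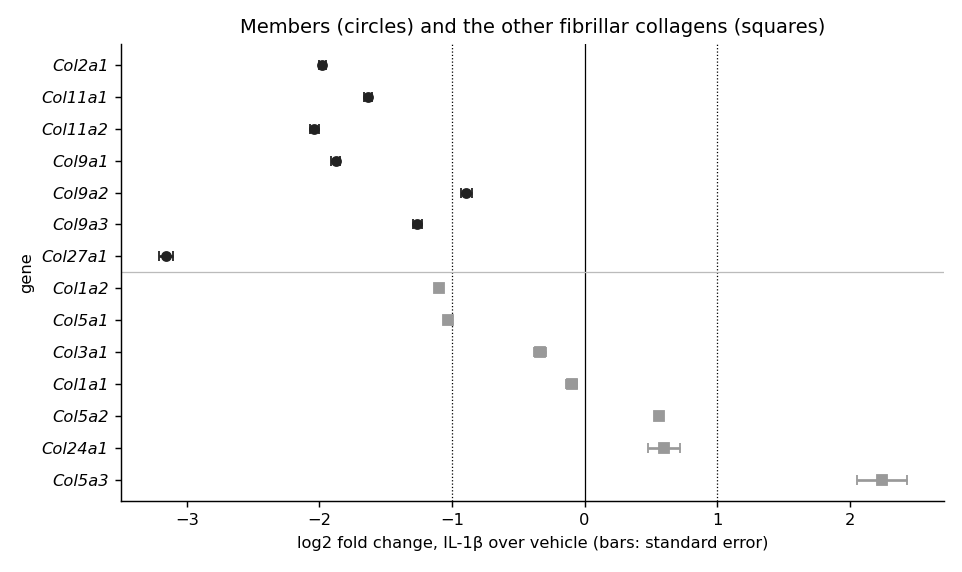
Log2 fold change (IL-1β over vehicle, edgeR, bars are the standard error) of the 7 members (circles) and of the other 7 fibrillar collagen genes (squares), with dotted lines at -1 and 1. All 7 members lie left of 0, from -3.16 (*Col27a1*) to -0.89 (*Col9a2*), while the other fibrillar collagens run from -1.10 (*Col1a2*) to 2.24 (*Col5a3*).

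Levels of different genes are compared per kilobase of the exon length listed beside the counts. With vehicle, the order was *Col2a1* (1215 ± 21.2 CPM per kb), *Col11a1* (152 ± 3.56), *Col11a2* (75.6 ± 1.79), *Col9a1* (54.7 ± 1.14), *Col9a3* (47.7 ± 0.325), *Col9a2* (27.1 ± 1.20) and *Col27a1* (7.25 ± 0.232; SD, n = 4), and the values of neighbours in this order did not overlap. With IL-1β the order began in the same way, *Col2a1* (309 ± 12.7 CPM per kb) before *Col11a1* (49.0 ± 1.45), but *Col9a3* (19.9 ± 1.02) came next, before *Col11a2* (18.4 ± 0.466). *Col9a1* (14.9 ± 0.687) and *Col9a2* (14.6 ± 0.232) overlapped, and *Col27a1* was again last (0.816 ± 0.0489). The listed length sums all exons of a gene. With the length of the longest coding transcript instead, an alternative chosen after the data were seen, the order was that above in both groups, but *Col9a1* and *Col9a2* no longer overlapped with IL-1β (19.7 ± 0.908 against 15.5 ± 0.245 CPM per kb).

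The proportions between the chains were tested as log2 ratios of the counts within each sample. Of the 21 pairs of members, 20 differed between the groups with no overlap (two-sided exact permutation p = 0.0286, again the lowest value that can be had, and p = 0.03 adjusted over the 21 pairs). The pair whose ratio did not was *Col2a1* to *Col11a2*: per kb it was 15.6 to 16.4 in the vehicle samples and 15.9 to 17.4 in the IL-1β samples, which overlap, and the log2 ratio was higher by 0.06 after IL-1β (exact permutation p = 0.143). The smallest difference of the 20 was that of *Col2a1* to *Col9a1*, lower by 1.07-fold. Samples of a group spread so little that even this ratio did not overlap. The share of other gene pairs that differ in this way was not computed, so whether the count of 20 is particular to these chains was not tested. All 6 ratios of another member to *Col27a1* were higher after IL-1β, from 2.17-fold (*Col11a2*) to 4.81-fold (*Col9a2*).

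Within type IX, the proportions of the 3 transcripts differed between the groups. The ratio of *Col9a1* to *Col9a2* per kb was 1.96, 2.00, 2.11 and 2.02 in the vehicle samples and 0.962, 1.08, 0.995 and 1.03 in the IL-1β samples. *Col9a1* was thus the most abundant of the 3 with vehicle, at 42.3 ± 0.229% of their summed level per kb, and was at 30.2 ± 1.13% with IL-1β. The share of *Col9a2* was 20.9 ± 0.561% with vehicle and 29.6 ± 0.649% with IL-1β, and that of *Col9a3* 36.8 ± 0.516% and 40.2 ± 1.04% (SD, n = 4). Within type XI, the ratio of *Col11a1* to *Col11a2* per kb was 1.99 to 2.03 with vehicle and 2.57 to 2.73 with IL-1β. *Col2a1* to *Col11a1* was 7.68 to 8.12 with vehicle and 6.19 to 6.39 with IL-1β. No sample of one group reached the other in any of these ratios.

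**Figure D3:**
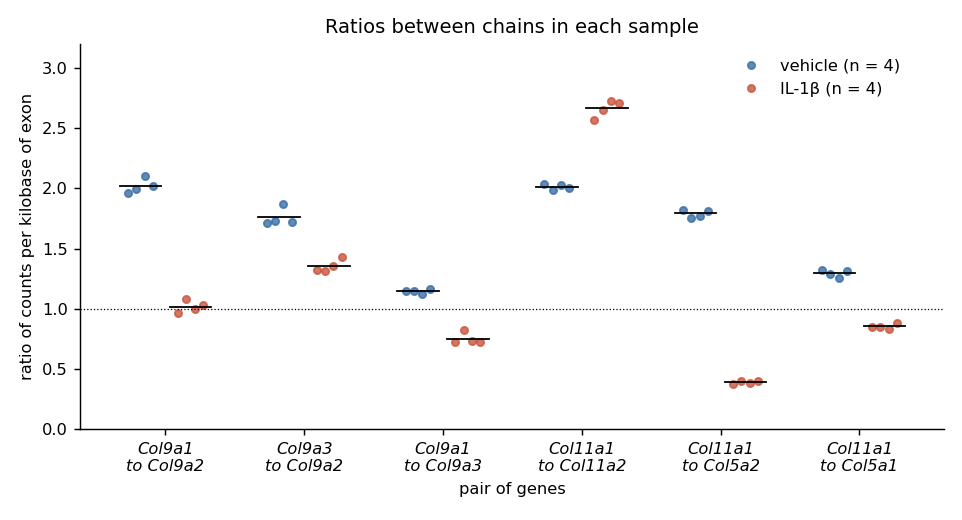
Ratio of counts per kilobase of exon between pairs of genes in each vehicle (blue) and IL-1β (red) sample, with a line at each group's mean and a dotted line at a ratio of 1. *Col9a1* to *Col9a2* goes from 2.02 to 1.02, *Col11a1* to *Col11a2* from 2.01 to 2.67, and *Col11a1* to *Col5a2* from 1.79 to 0.391.

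The other fibrillar collagens did not follow the members as a group. Of 7, *Col1a2* and *Col5a1* were DEGs with lower levels, *Col5a3* was a DEG with a higher level, and 4 were not DEGs, with a median log2 fold change of -0.10. *Col1a1*, the main chain of type I collagen of bone, tendon and fibrous tissue, was at 90.4 ± 3.39 CPM in vehicle and 84.2 ± 5.84 CPM after IL-1β, with overlapping samples (log2 fold change -0.10, SE 0.0431, edgeR adjusted p = 0.0760). Its partner chain *Col1a2* went from 177 ± 1.30 to 82.9 ± 1.94 CPM (log2 fold change -1.10, SE 0.0312). *Col3a1*, of type III collagen, had a log2 fold change of -0.34 (SE 0.0463) and was not a DEG. Per kb, *Col2a1* was at 88.3 ± 4.13 times the level of *Col1a1* with vehicle and at 24.1 ± 1.35 times with IL-1β, a 3.66-fold lower ratio. The members together, against *Col1a1*, *Col1a2* and *Col3a1* together, were at 47.6 ± 1.33 times with vehicle and 18.1 ± 0.697 times with IL-1β. All 8 ratios of members to other genes that were tested differed without overlap (two-sided exact permutation p = 0.0286, adjusted over the 8 p = 0.0286). Here too the share over other gene pairs was not computed.

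Type V collagen is the closest relative of type XI, and its chains can stand in the same molecules. *Col5a2* was at 815 ± 12.3 CPM in vehicle and 1203 ± 11.3 CPM after IL-1β (log2 fold change 0.56, SE 0.0273, edgeR adjusted p = 2.74e-16), below the DEG threshold but higher in every IL-1β sample. *Col5a1* went from 998 ± 8.57 to 487 ± 7.56 CPM (log2 fold change -1.03, SE 0.0284). *Col5a3* was low, at 1.63 ± 0.727 CPM in vehicle and 7.64 ± 1.04 CPM after IL-1β (log2 fold change 2.24, SE 0.189, edgeR adjusted p = 6.03e-11). *Col11a1* per kb was 1.79 ± 0.0319 times *Col5a2* with vehicle and 0.391 ± 0.0104 times with IL-1β, which reversed their order. Against *Col5a1* the ratio was 1.30 ± 0.0316 with vehicle and 0.854 ± 0.0194 with IL-1β, so that the order per kb was reversed here too. This reversal rests on the listed exon lengths. In CPM, *Col11a1* stayed above *Col5a1* in both groups (1941 against 998 with vehicle, 625 against 487 with IL-1β). Transcript lengths were not tried for the genes outside the members. *Col24a1*, the gene most like *Col27a1* in its chain, had 4.38 ± 0.462 CPM in vehicle and 6.66 ± 0.531 CPM after IL-1β, and the ratio of *Col27a1* to *Col24a1* per kb was 12.7 ± 1.02 and 0.937 ± 0.0623 (SD, n = 4).

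*Col10a1*, the collagen of hypertrophic chondrocytes, fell more than *Col2a1*. It went from 102 ± 4.17 to 12.7 ± 0.986 CPM (log2 fold change -2.996, SE 0.0533, edgeR adjusted p = 9.45e-27), and the ratio of *Col2a1* to *Col10a1* was 2.04-fold higher after IL-1β. Of 7 fibril-associated collagens other than type IX, 6 were in the table and 3 passed the filter, none of them a DEG. The most abundant was *Col12a1*, at 229 ± 7.14 CPM in vehicle and 126 ± 4.91 CPM after IL-1β (log2 fold change -0.86, SE 0.0333, edgeR adjusted p = 1.23e-18). Over all 37 collagen genes besides the members, 26 were tested, of which 9 were DEGs with lower and 1 with higher levels, with a median log2 fold change of -0.40.

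SOX9 switches on *Col2a1*, *Col9a1* and *Col11a2* in chondrocytes, with SOX5 and SOX6 as partners. *Sox9* went from 568 ± 5.24 to 220 ± 12.7 CPM (log2 fold change -1.37, SE 0.0358, edgeR adjusted p = 1.06e-22), so that the ratio of *Col2a1* to *Sox9* was 1.52-fold lower after IL-1β. *Sox5* and *Sox6* were not DEGs, with log2 fold changes of -0.11 (SE 0.0382) and -0.44 (SE 0.0310). Of the 10 regulators listed, 3 were DEGs with higher levels, against 2.86% of all genes tested, and 2 were DEGs with lower levels, with a median of 0.03. The 3 with higher levels were *Cebpd* (log2 fold change 2.01, SE 0.0368), *Cebpb* (1.30, SE 0.0354) and *Elf3* (1.20, SE 0.250), transcription factors that respond to inflammatory signals. *Elf3* was low, at 1.12 ± 0.517 CPM in vehicle and 2.68 ± 0.543 CPM after IL-1β, and without vehicle sample 3 its log2 fold change was 0.999, under the threshold. Besides *Sox9*, *Snai2*, of the Snail family of repressors, fell (log2 fold change -1.04, SE 0.0404, named after its value was seen). *Snai1*, of the same family and list, did not fall (log2 fold change 0.17, SE 0.0550, with overlapping samples).

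Since the members moved together, the stretch around their transcription starts was searched for short motifs in the promoter sequences of RefSeq (GRCm38.p6), which cover 250 bases before to 50 bases after a start. There were 6 such windows for 5 of the members, with 2 starts for *Col9a1*, and *Col2a1* and *Col9a3* were not in the table. The starts are those of RefSeq and can differ from the GENCODE gene positions given above. The *Col11a2* window ends before the GENCODE start of its gene (34039187 against 34039437). The *Col27a1* window begins after that of its gene (63215162 against 63214004). The motif GGGCGG, a binding sequence of Sp1, was found on either strand in 4 of the 6 windows and in 35.7% of 32851 promoters. CCAAT was in 2 of the 6 (37.4% of promoters) and TATAAA in 1 (13.6%). The SOX core ACAAAG or ACAATG was in none of the 6 (28.6%), which says only that these letters are not in these windows. The windows with GGGCGG were those of *Col11a1*, *Col11a2*, *Col27a1* and *Col9a2*, some with more than 1 match. Their GC content was 59.0% to 62.3%, against 47.3% and 55.7% in the 2 windows of *Col9a1*. The median over all promoters was 52.7%. The part of GC content in these matches was not tested. Places of GGGCGG are shown because it was the motif most members had. For the first 3 genes, 1 place each is printed in capitals, with 30 bases on the plus strand and the whole window's position. *Col9a2*, which held it on both strands, is not printed.
Col11a1 (chr3:114030290-114030589): cagggagagactGGGCGGgttcaaggctgc
Col11a2 (chr17:34038888-34039187): tctataaacaccCCGCCCaggactgctctg
Col27a1 (chr4:63215162-63215461): gttggcagcagaGGGCGGcccggcgcgggg
In *Col11a2* the motif lies on the opposite strand, so that its complement is read, and it lies shortly after the TATAAA sequence. Motif matches are a description of the sequence and not of binding.

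The study is about miR-146a-5p, and the longest 3′ UTR of each member was therefore searched for the match to its seed, AGTTCTC. *Col11a1* held 1 match, at bases 1623 to 1629 of 1891, and the other 6 members had none. Of all 11958 tested genes with a 3′ UTR, 12.8% held a match. Among the 2337 with a 3′ UTR of 1500 to 2500 bases, the class of *Col11a1*, 15.4% did. The miRNA is printed with its seed in capitals, and the site (chr3:114220450-114220456, GRCm38, plus strand) with the matching bases in capitals.
miR-146a-5p: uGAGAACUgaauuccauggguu
Col11a1 site: ttcaaagataAGTTCTCaaatatacag
The match is followed by A.

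The chains are modified and folded in the endoplasmic reticulum by the genes of the largest list, 17 in all. Of these, 2 were DEGs with lower levels and 15 were not DEGs, with a median log2 fold change of -0.24. The DEGs were *P3h2*, a prolyl 3-hydroxylase (log2 fold change -1.51, SE 0.0413), and *Colgalt2*, a galactosyltransferase of hydroxylysine (-1.39, SE 0.115). *Serpinh1*, the collagen chaperone HSP47 and the most abundant of the list, was at 2992 ± 51.1 CPM in vehicle and 1922 ± 83.5 CPM after IL-1β (log2 fold change -0.64, SE 0.0284, edgeR adjusted p = 3.42e-17). None of the 4 export genes was a DEG, and their median was -0.14. *Sec23a*, of the coat of transport vesicles, was the highest of them per kb, with a log2 fold change of -0.24 (SE 0.0326).

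Outside the cell, the propeptides are cut off and the chains are crosslinked. Of 8 genes for propeptide removal, 7 were tested and 2 were DEGs, both lower, the enhancers of the C-proteinase *Pcolce* (log2 fold change -1.34, SE 0.0547) and *Pcolce2* (-1.36, SE 0.0501), with a median of -0.33. The 5 lysyl oxidases split. *Lox* rose from 400 ± 7.09 to 1153 ± 22.2 CPM (log2 fold change 1.53, SE 0.0294, edgeR adjusted p = 5.60e-26), while *Loxl3* (-1.46, SE 0.0400) and *Loxl2* (-1.14, SE 0.0316) fell. *Loxl4*, the most abundant per kb, went from 2142 ± 27.0 to 1135 ± 46.4 CPM, a log2 fold change of -0.92 (SE 0.0291) that left it short of a DEG. The median of the 5 was -0.92.

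The molecules that coat the fibril or fill the space around it gave the largest count among the lists, with 8 of 14 genes DEGs with lower levels, 1 a DEG with a higher level and a median log2 fold change of -1.10. *Matn1*, a matrilin that binds collagen fibrils, had a log2 fold change of -2.79 (SE 0.0838), *Acan*, the core protein of aggrecan, -2.37 (SE 0.0350), *Comp*, which binds type II and type IX collagen, -2.33 (SE 0.0396) and *Fmod*, a fibril-binding proteoglycan, -2.09 (SE 0.0394). *Acan* went from 1286 ± 35.9 to 248 ± 12.0 CPM, and the ratio of *Col2a1* to *Acan* was 1.32-fold higher after IL-1β. *Bgn*, the most abundant of the list per kb with vehicle, went from 1181 ± 13.0 to 753 ± 26.8 CPM (log2 fold change -0.65, SE 0.0296) and was not a DEG. The 1 DEG with a higher level was *Dcn*, the proteoglycan decorin, from 265 ± 10.5 to 758 ± 4.12 CPM (log2 fold change 1.52, SE 0.0323), named after its value was seen.

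Of 7 genes of collagen receptors, 2 were DEGs with lower levels and 5 were not DEGs, with a median of -0.17. *Itga10* (log2 fold change -1.14, SE 0.0608) and *Itga11* (-1.06, SE 0.111), α chains of integrins that bind collagen, were lower. *Itgb1*, the shared β1 chain and the highest per kb, was at 491 ± 6.34 CPM in vehicle and 463 ± 16.5 CPM after IL-1β (log2 fold change -0.08, SE 0.0315). Of 10 genes of collagen breakdown, 6 were tested, of which 2 were DEGs with higher levels, none was a DEG with lower levels, and 4 were not DEGs, with a median of 0.50. *Mmp3*, stromelysin 1, went from 23.6 ± 1.48 to 1058 ± 69.3 CPM (log2 fold change 5.48, SE 0.0506), and *Mmp13*, the main collagenase that cuts type II collagen, from 32.2 ± 2.11 to 212 ± 4.96 CPM (2.71, SE 0.0400).

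**Figure D4:**
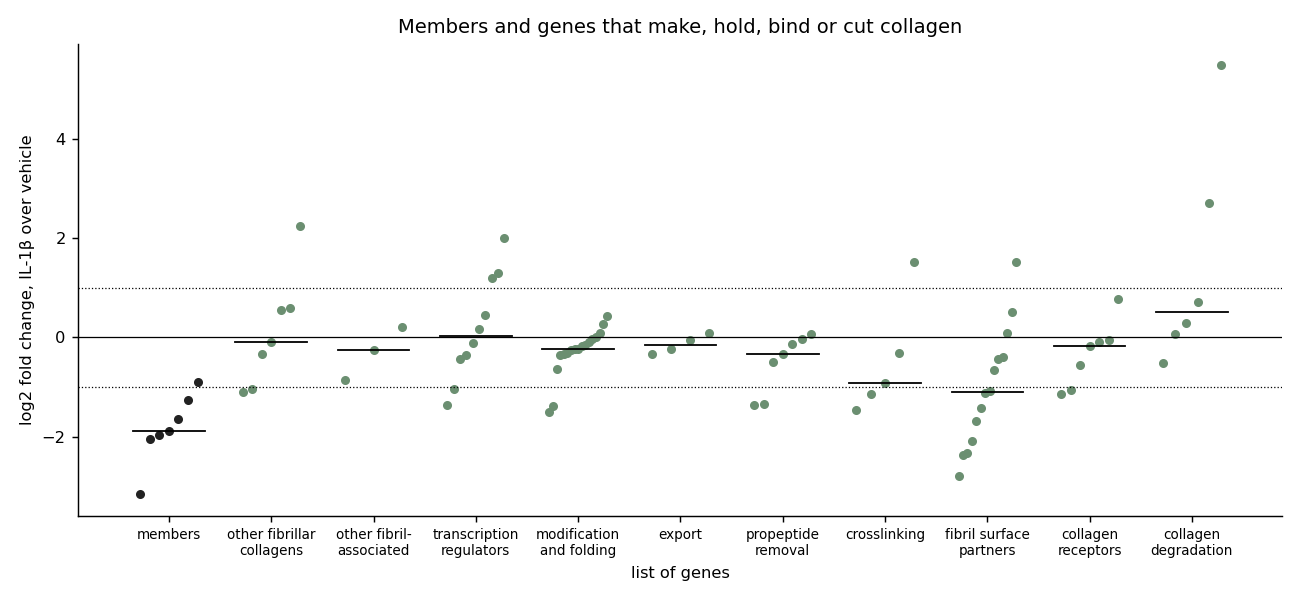
Log2 fold change (IL-1β over vehicle) of every tested gene in the members and in the 10 lists of related genes, 1 point per gene, with a line at the median of each list and dotted lines at -1 and 1. The members (black) have the lowest median, -1.88, followed by the fibril surface partners at -1.10, and collagen degradation has the highest, 0.50.

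The genes whose levels over the 8 samples were most like the mean of the members' standardized log2 CPM were *Smoc2* (Pearson r = 0.9997), *Col6a3* (0.9995), *Wwp2* (0.9994), *Acan* (0.9993) and *Col5a1* (0.9991). This is a description over 8 samples that fall into 2 separate groups, and 213 of 14397 genes had an r above 0.99. *Smoc2*, a secreted calcium-binding matrix protein, went from 122 ± 2.75 to 13.6 ± 0.489 CPM (log2 fold change -3.17, SE 0.0472), much as *Col27a1*. *Col6a3*, a chain of the microfibrillar type VI collagen, had a log2 fold change of -1.36 (SE 0.0275). *Wwp2*, a ubiquitin ligase whose gene hosts a cartilage miRNA, had one of -0.82 (SE 0.0300), the size of *Col9a2*, with edgeR adjusted p = 3.63e-19.

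Within the groups the members spread little. The SD was 0.682% to 4.42% of the mean in the vehicle samples and 1.58% to 5.99% in the IL-1β samples. IL-1β sample 4 had 6 of the 7 members above their group mean, by 0.05 on the log2 scale on average. Vehicle sample 4 had all 7 above, by 0.02 on average, and vehicle sample 3 had 1 of 7 above, with an average of -0.04. These offsets are small against the differences between the groups.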

How the data were processed

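RNA-Seq of 4 IL-1β and 4 vehicle samples of murine articular chondrocytes was used. The authors trimmed reads with cutadapt, aligned them to mm10 (GENCODE vM20) with STAR, for which the paper and the submitters' processing notes give different versions (2.4.2a in the notes), and counted them with featureCounts. The deposited values are whole-number counts per gene symbol. The methods name a correction by RUVseq, and the sources used here do not say if these counts were taken before or after it. The authors also deposited a gene length in bases (unit other), used here for levels per kb. The miRNA-Seq, the in vivo and the human experiments were not analysed here.

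Groups follow the labelled treatment. The main test was edgeR's quasi-likelihood test with TMM factors, run in R 4.3.3 with edgeR 4.0.16 and limma 3.58.1, on the 14404 genes whose CPM exceeded 1 in 4 or more samples. The standard error is that of the log2 fold change, taken from the F statistic. The prior degrees of freedom were 20.9 and the common coefficient of variation was 4.11%. Replicates of a group differed by more than sampling noise (chi-square per degree of freedom 1.98 to 6.34), so none was counted as a duplicate. Ratios and shares were compared by the exact permutation test with Benjamini-Hochberg adjustment in scipy 1.17.1 under Python 3.11.15, with pandas 2.3.3, numpy 2.4.6 and matplotlib 3.10.9. The code was tested on simulated data. Likeness used log2(CPM + 0.5). Precision is limited by 10992355 to 17456063 counts per sample, and the limit of 3 counts covers counting error only, as the reads carry no molecular identifiers and several can come from 1 molecule.

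Of the 54658 symbols, 53994 (98.8%) matched 1 gene of GENCODE vM21 (GRCm38), and 53172 of these had the listed exon length. Col11a2 did not (6831 listed, 6874 in vM21). Sequences are those of vM21 and RefSeq.

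The members and lists were chosen with earlier results of these data known. Named genes are the 7 members, up to 4 DEGs of each list by size of change, the gene of each list with the highest CPM per kb, a few comparison genes, the partners in ratios and the 5 genes most alike. Alternatives were DESeq2 1.42.0, other scalings and filters, the replicate number as a block, 1 RUVs factor, glmTreat, a log2 fold change beyond 2, a pseudocount of 0.5, medians, and each sample left out.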

Additional observations from a re-analysis of the deposited data

Results flagged for a closer look

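In 92 groups of 4 samples (the 7 members, the other genes named by the rule above and the total counts, in each treatment), 2 held a sample whose gap to the nearest other was above Dixon's critical share of the group's range, and chance alone flags about 1 in 20. Genes named outside that rule, such as *Dcn*, *Snai1*, *Snai2*, *Tcfl5* and *Gm26917*, were not checked in this way. *Col9a2* was at 78.3 CPM in vehicle sample 3, below the other vehicle samples at 85.7 to 85.8 CPM, and *Comp* was at 551 CPM in vehicle sample 4, above the others at 525 to 529 CPM. Without vehicle sample 3, the log2 fold change of *Col9a2* was -0.92, still above -1.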

How the results depend on the processing

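The 7 members kept their direction under every alternative tried, and with other tools, scalings, filters, the block or the RUVs factor no log2 fold change moved by more than 0.00558. With 1 sample removed at a time, they ran from -2.0003 to -1.95 (*Col2a1*), -1.65 to -1.62 (*Col11a1*), -2.06 to -2.02 (*Col11a2*), -1.89 to -1.85 (*Col9a1*), -0.92 to -0.88 (*Col9a2*), -1.29 to -1.24 (*Col9a3*) and -3.18 to -3.11 (*Col27a1*), with the same call each time. When a log2 fold change beyond 2 was required, only *Col11a2* and *Col27a1* were called, 2 in place of 6, and *Col2a1* (-1.98), *Col9a1* (-1.88), *Col9a3* (-1.26) and *Col11a1* (-1.63) were not. Over the lists, the DEGs then numbered 4 with higher and 4 with lower levels, in place of 8 and 20, which follows from the threshold. With glmTreat against a log2 fold change of 1, the DEGs over the lists numbered 7 with higher and 15 with lower levels. *Elf3*, *Itga10*, *Itga11*, *Snai2* and *Col5a1* were not called by it, and the fibril surface partners called lower numbered 7 in place of 8. *Col5a3* and *Elf3* did not pass a CPM above 1 in all 8 samples.

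The groups share replicate numbers, but the labels do not say that a number marks a shared culture. The deviations of same-numbered samples from their group means correlated by -0.0689 to 0.0353 over genes, and those of differently numbered samples by -0.0786 to 0.0846. Whether this measure would detect a shared culture was not tested, so it does not settle what the number marks. With the replicate block, the log2 fold changes were -1.98 (*Col2a1*), -1.63 (*Col11a1*), -2.04 (*Col11a2*), -1.88 (*Col9a1*), -0.89 (*Col9a2*), -1.26 (*Col9a3*) and -3.16 (*Col27a1*), and no call changed. For ratios and the summed share, pairing leaves the mean difference as it is by arithmetic and is no check. With 4 pairs no p-value under 0.125, with a sample left out none under 0.0571, and from medians none under 0.0571 is possible for ratios and shares, so only values were compared there.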
